A study of Mus musculus with 5 samples.

Results

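The genes described here encode the subunits of the receptors for glutamate, GABA and glycine, the transmitters of fast excitation and inhibition in the retina. They were chosen by symbol from a table of 24594 genes, with a rule that reads no difference between groups but was set with earlier results of these data known. The rule matched 50 rows, and the 46 with a mean normalised read count of at least 10 over the 5 libraries are the members. It left out Grm6 and Grik1. Of the other 4 rows, Glra1 had a mean of 7.11, Gabrp of 3.39, Gabra6 of 0.462 and Glra4 of 0.406, and these are not described further. The lowest members were Grin2c with a mean of 30.9 and Gabre with 31.0. By family, 4 members encode AMPA receptor subunits, 4 kainate, 7 NMDA, 2 delta and 7 metabotropic glutamate receptors, while 17 encode GABA-A subunits, 2 GABA-B and 3 glycine receptor subunits.

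Messenger RNA of mouse retinal cells was sequenced in 3 libraries labelled Zfp292-OE, from retinas given a CAG-Zfp292 plasmid, and in 2 control libraries, from retinas given a CAG-GFP plasmid. Zfp292 is a nuclear zinc finger protein, and CAG is a strong promoter active in most cell types, so it does not choose a cell type by itself. Per the labels' protocols the plasmids were electroporated into living pups at postnatal day 0, retinas were taken 4 days later, and GFP-positive cells, called RPC (retinal progenitor cells) there, were sorted by fluorescence. All 5 libraries share this age, the electroporation and the sort. Strain and sex are not in the labels used here, nor is whether separate animals were used for each library, so p-values measure the spread between these libraries, which may be technical.

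AMPA, kainate, NMDA and delta receptor genes encode tetramers that belong to one superfamily of glutamate receptors, of which AMPA receptors carry most fast excitatory current. Metabotropic glutamate receptors and GABA-B receptors act through G proteins. GABA-A and glycine receptors are chloride channels built from 5 subunits, and retinal GABA receptors include a form made of rho subunits that is known from bipolar cells. In the retina, photoreceptors and bipolar cells release glutamate, and amacrine and horizontal cells release GABA or glycine.

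Reads assigned to genes numbered 114197740, 135442444 and 117441152 in libraries 1, 2 and 3 labelled Zfp292-OE, and 103096224 and 137683716 in control libraries 1 and 2. Values below are normalised read counts, that is reads divided by 1 factor per library. Zfp292 had 14631, 13197 and 15534 in the libraries labelled Zfp292-OE, against 13288 and 14756 in the control libraries, with no detectable difference (limma adjusted p = 0.87, log2 fold change 0.04, 95% interval −0.28 to 0.37). Every direction below therefore rests on the labels, with Zfp292 itself at like levels. Lists of retinal cell type markers gave the setting. Beside them, 10% of all 16316 genes tested rose and 7.38% fell (limma adjusted p below 0.05). At an unadjusted p below 0.05, 2820 of the 16316 were higher and 2531 lower. Of 10 progenitor and proliferation genes 9 rose and 0 fell, at summed levels of 288754 to 390900 in the libraries labelled Zfp292-OE, against 105487 to 108180 in control. All 10 rod genes fell, at summed levels of 198914 to 244307, against 754952 to 885586. Of 10 bipolar genes 8 fell, and their summed levels of 151511 to 238484 overlapped the 205732 to 235887 of control. Most of that sum was Otx2, which photoreceptors also express and which did not pass, at 117569 to 203715 against 110863 to 156329, while Isl1 had 1114 to 2029 against 10365 to 12055. Of 10 amacrine genes 1 rose and 1 fell, close to the shares of all genes tested, with sums of 53560 to 78678 against 71934 to 79064. For 5 horizontal cell genes, of which 1 fell, the sums were 12318 to 15122 against 20139 to 24220. None of 10 ganglion cell genes passed in limma or edgeR, also none at an unadjusted p below 0.05, and their sums were 5837 to 13904 against 5126 to 6974. Of 10 Müller glia genes 1 rose and 4 fell, with sums of 339263 to 418208 against 630508 to 798356. Of 8 cone genes 3 fell and of 5 astrocyte genes 4 fell, with 0 higher in either list. Of 7 vascular genes 1 rose, Cldn5, at 1728 to 3227 against 203 to 234, and 2 fell, Rgs5, at 0 to 16.0 against 461 to 1233, and Acta2, at 0 to 3.42 against 43.9 to 415. None of 8 microglia genes passed in limma or edgeR, with 1 at an unadjusted p below 0.05, and their sums were 330 to 3155 against 2415 to 8007. The bipolar genes Vsx1 and Bhlhe23, the amacrine gene Slc18a3 and the ganglion cell genes Pou4f2 and Pou4f3 were at 0 reads in at least 1 library. So were the microglia genes Csf1r, Tmem119 and Ptprc, the vascular genes Cdh5, Tek, Rgs5 and Acta2 and the astrocyte gene Pax2. Cdh5 and Tek were at 0 reads in both control libraries. The part of these marker shifts in the receptor results was not tested.

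Receptor subunit genes were lower in the libraries labelled Zfp292-OE wherever they passed the test. The falls spanned glutamate and GABA receptors, with 1 of 3 glycine receptor genes. Of the 46 members 12 fell and 0 rose in limma at an adjusted p below 0.05, which is the meaning of "fell" and "rose" throughout. The 8 of them described by name were the AMPA subunits Gria2 and Gria4, the kainate subunit Grik5, the metabotropic receptor Grm5, the GABA-A subunits Gabrr1 and Gabrr3, the GABA-B subunit Gabbr1 and the glycine receptor subunit Glra3. Among all 16316 genes tested, 7.38% fell and 10% rose, against 26.1% and 0% of the members. No member rose in edgeR or at an unadjusted p below 0.05 either, a level at which 2820 of the 16316 genes tested were higher. At that level 24 members and 2531 of all genes tested were lower. By edgeR 13 of the 46 members were called lower, against 7.78% of all genes tested. In bulk samples, fewer cells of a type and less RNA per cell cannot be told apart.

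The tendency went beyond the calls. The log2 fold change was negative for 43 of 46 members, with a median of −1.10, against 53.3% of all genes tested with a median of −0.06. In 29 members every library labelled Zfp292-OE lay below both control libraries, a pattern seen in 25.7% of all genes tested. In 0 members did all 3 lie above both controls, against 24.3% of all genes tested. The shift was present in each library labelled Zfp292-OE. In libraries 1, 2 and 3, 34, 37 and 39 members lay below both controls (73.9%, 80.4% and 84.8%). Of all genes tested, 41.3%, 40.9% and 39.6% did. The members' median log2 ratio to the control mean was −0.89, −0.92 and −1.23, against −0.030, −0.030 and −0.010 for all genes tested. Of the 17 members that lay below both controls in every such library without passing the test, 16 were Gria1, Grik2, Grik3, Grin1, Grin2a, Grin2b, Grin2d, Grm2, Grm7, Grm8, Gabra4, Gabra5, Gabrb2, Gabrr2, Gabbr2 and Glra2.

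The SE of a member's log2 fold change ranged from 0.16 to 2.39. None of the 7 members with a mean under 100 passed, and 8 of the 17 with a mean of at least 1000 did. With either control library left out, 1 control remained, so these fits say nothing about the 12 calls beyond their log2 fold changes. All of those stayed negative, which was fixed, since for each of the 12 every library labelled Zfp292-OE lay below both controls. Without library 1, 2 or 3 labelled Zfp292-OE, 6, 3 and 9 of the 12 passed, while the genes called lower over the whole table numbered 501, 529 and 850, against 1204 with all libraries. Gria2 was called in each of these last 3 fits.

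**Figure D1:**
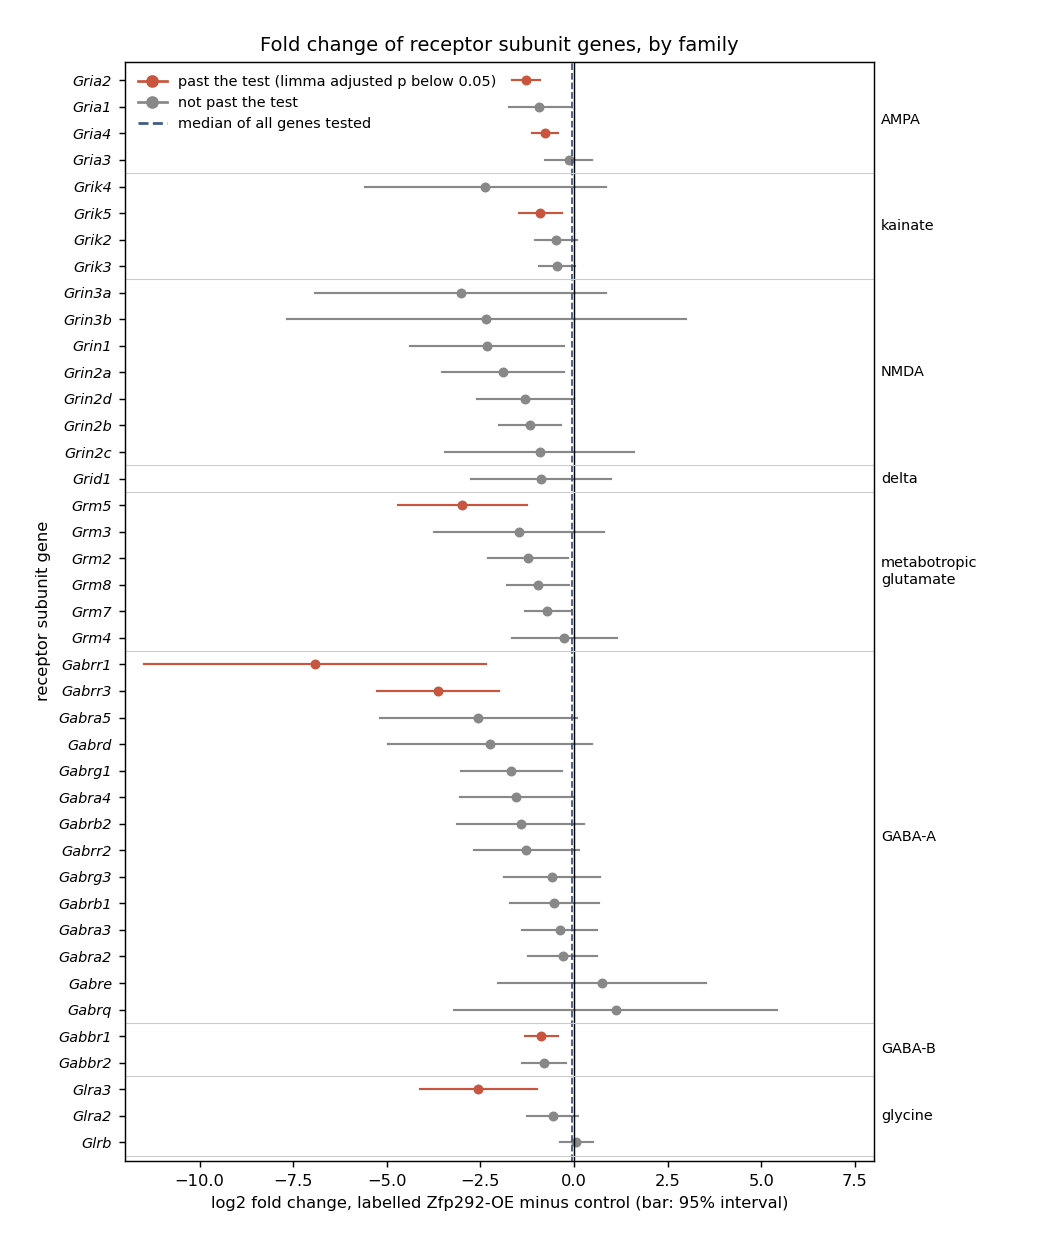
Log2 fold change (x axis) of 41 receptor subunit genes (y axis, grouped by family), libraries labelled Zfp292-OE minus control, from limma on log2(value + 1). Points are estimates and bars 95% intervals, the 8 genes past the test are coloured, the dashed line is the median of all genes tested (−0.06), and 38 points lie left of 0.

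Of 4 AMPA receptor genes 2 fell, 0 rose and 2 did not pass, and the 2 that fell varied little between libraries of a group. Gria2 encodes GluA2, the subunit whose edited form makes AMPA channels nearly impermeable to calcium (Entrez 14800, GRCm38 chromosome 3, 80681450 to 80804227). It had 4455, 4088 and 3525 in libraries 1, 2 and 3 labelled Zfp292-OE, against 9844 and 9810.0 in control libraries 1 and 2. The control libraries nearly coincided and the others were far lower, with no overlap. Mean Gria2 was 4023 ± 468 (SD, n = 3) under the Zfp292-OE label and 9827 ± 23.7 (SD, n = 2) in control, a ratio of means of 0.409. The difference was −1.29 in log2 terms (SE 0.17, adjusted p = 0.0012 by limma and 0.0021 by edgeR).

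Gria4 encodes GluA4, a subunit of fast AMPA receptors (chromosome 9, 4417893 to 4796234). It had 5619, 5107 and 4754 in the libraries labelled Zfp292-OE, against 8914 and 8698 in control. All 3 lay below the controls, by a log2 fold change of −0.77 (SE 0.16, limma adjusted p = 0.010). The call was narrowly lost without library 2 labelled Zfp292-OE (adjusted p = 0.051).

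Gria1, the GluA1 subunit, had 1096, 1162 and 525 in the libraries labelled Zfp292-OE, against 1589 and 1747 in control. Library 3 was the lowest, and the gene did not pass (log2 fold change −0.93, adjusted p = 0.11). Gria3 overlapped between the groups, at 1266, 1592 and 987 against 1521 and 1265 (log2 fold change −0.14, 95% interval −0.77 to 0.49).

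Per length, the balance among AMPA subunits also differed between the groups. As a share of the 4 genes' summed reads per kb of the longest transcript, Gria2 made up 21.3 to 22.7% in the libraries labelled Zfp292-OE and 30.0 to 30.5% in control. Gria3 made up 12.7 to 16.5% and 7.83 to 9.23%. The shares of Gria4, 50.8 to 58.3% and 51.5 to 51.7%, overlapped, but this depended on the length used. The longest Gria2 transcript has 10371 bases and the median length is 3571.5. With median lengths, the Gria4 share was higher in every library labelled Zfp292-OE than in either control. These shares are descriptions with no test.

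The gene next to Gria2 on chromosome 3, 39370 bases away, is another member that did not fall. Glrb encodes the beta subunit that anchors glycine receptors at synapses (80843598 to 80913660). It had 8710, 7063 and 6941 in the libraries labelled Zfp292-OE, against 8766 and 5934 in control, and the groups overlapped. Its log2 fold change was 0.06 (95% interval −0.38 to 0.51, adjusted p = 0.86), with the sign turning under 4 of 15 alternatives. Gria2 reads over Glrb reads gave 0.512, 0.579 and 0.508 in the libraries labelled Zfp292-OE, against 1.12 and 1.65 in control libraries 1 and 2.

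Bases 250 to 51 before the start of these neighbouring genes are shown because one gene fell and the other did not, and those of Gabrr1 and Gabrr3 because their falls were among the largest. Sequences are from RefSeq on GRCm38.p6, 5′ to 3′ on the gene's strand, and capitals mark motif matches on either strand. The start used for Gria2 lies inside the full span given above.
Gria2 (chr3:80802886-80803085, minus strand): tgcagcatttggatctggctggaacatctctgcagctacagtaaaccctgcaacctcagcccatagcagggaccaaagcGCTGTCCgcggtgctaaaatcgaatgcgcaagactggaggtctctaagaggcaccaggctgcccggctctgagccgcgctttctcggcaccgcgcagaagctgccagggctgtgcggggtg
Glrb (chr3:80913711-80913910, minus strand): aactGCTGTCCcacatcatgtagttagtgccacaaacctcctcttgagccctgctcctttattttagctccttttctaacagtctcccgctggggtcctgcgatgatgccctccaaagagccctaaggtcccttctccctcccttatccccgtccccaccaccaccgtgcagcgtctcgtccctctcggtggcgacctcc
Gabrr1 (chr4:33132306-33132505, plus strand): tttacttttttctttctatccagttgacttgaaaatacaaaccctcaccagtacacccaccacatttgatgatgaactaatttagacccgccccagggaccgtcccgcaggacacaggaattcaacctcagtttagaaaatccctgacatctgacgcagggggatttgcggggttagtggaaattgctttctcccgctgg
Gabrr3 (chr16:59407132-59407331, plus strand): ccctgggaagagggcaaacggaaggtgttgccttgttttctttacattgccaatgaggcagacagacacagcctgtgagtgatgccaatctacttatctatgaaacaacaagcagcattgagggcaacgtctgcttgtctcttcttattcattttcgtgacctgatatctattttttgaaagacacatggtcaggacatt

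Of the 46 members 32 had a promoter in that table, among them 7 of the 12 that fell. The motifs searched were GGACAGC and CAGCACC, core letters from the right and left sides of the RE1 element that binds the neuronal gene repressor REST, TAATCC, bound by the photoreceptor and bipolar factors CRX and OTX2, the E-box CAGCTG, and TATAAA. Motifs were searched on both strands of all 250 bases. None contains another, but matches of the E-box and the RE1 motifs can overlap, since some of their letters are shared. GGACAGC was found before Gria2, which fell, and before Glrb, which did not. It was present in 4 of 32 member promoters (12.5%) and in 5.29% of 27025 promoters of the same length. Its other matches were before Glra2 and Grm2, which did not pass, so 1 of the 7 that fell had it (14.3%). Median GC was 62.2% in member promoters and 52% in all promoters. The part of base composition in the motif shares was not tested. CAGCACC stood in 2 members (6.25%, against 5.70%) and TAATCC also in 2 (6.25%, against 6.38%). The E-box was found in 1 member (3.13%, against 12.8%) and TATAAA in 4 (12.5%, against 12.97%). No motif was found before Gabrr1 or Gabrr3. Promoters of members held a median of 13.5 CpG dinucleotides, against 6 for all promoters, with 19 before Gria2 and 20 before Glrb, but 7 before Gabrr1 and 3 before Gabrr3.

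**Figure D2:**
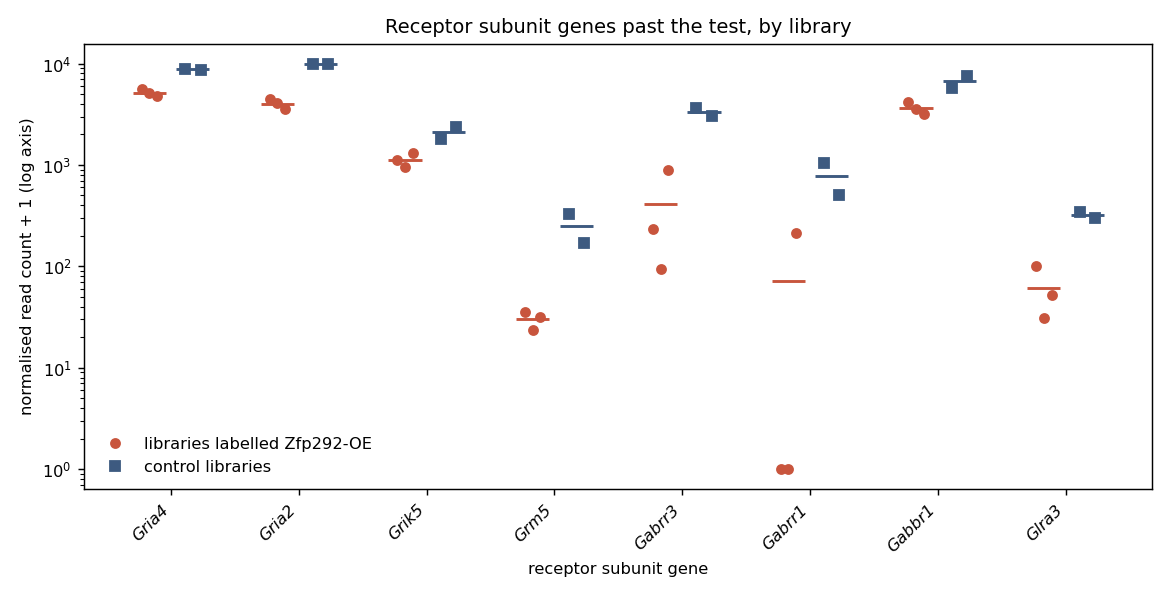
Normalised read count plus 1 (y axis, log scale) of 8 receptor subunit genes that fell (x axis), with a point for each library and a line at the group mean. For each gene all 3 libraries labelled Zfp292-OE (circles, left) lie below both control libraries (squares, right), and Gabrr1 is at 0 reads in 2 of them.

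Of 4 kainate receptor genes 1 fell, 0 rose and 3 did not pass. Grik5 encodes GluK5, a high-affinity subunit that forms channels only with a partner such as GluK2 (chromosome 7, 25009849 to 25075694). It had 1123, 946 and 1312 in the libraries labelled Zfp292-OE, against 1821 and 2384 in control. The groups did not overlap, and the log2 fold change was −0.90 (SE 0.26, limma adjusted p = 0.041). This call lost the threshold without library 1, 2 or 3 labelled Zfp292-OE (adjusted p = 0.11, 0.12 and 0.051), with no filter (0.052) and after quantile normalization (0.087). The partner Grik2 and its relative Grik3 had log2 fold changes of −0.47 and −0.45, with adjusted p-values of 0.22 and 0.18. Grik4 was scarce, with 112, 1.88 and 28.3 in the libraries labelled Zfp292-OE and 183 and 63.9 in control.

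NMDA receptor genes were low throughout, and none of 7 passed in limma, while 4 had an unadjusted p below 0.05 and edgeR called 1. All 4 were lower, as were 24 of the 46 members at that unadjusted level. Of all 16316 genes tested, 2531 were lower and 2820 higher at that level. Grin1 encodes GluN1, the subunit every NMDA receptor needs. It had 12.6, 67.7 and 88.9 in the libraries labelled Zfp292-OE, against 283 and 167 in control. All 3 lay below the controls, with a wide spread among them, and the adjusted p was 0.11 (log2 fold change −2.32, 95% interval −4.38 to −0.26).

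Grin2b encodes GluN2B, the partner subunit typical of immature neurons. It had 298, 440 and 356 in the libraries labelled Zfp292-OE, against 934 and 703 in control. Its difference of −1.17 in log2 terms (SE 0.37) reached an adjusted p of 0.056 in limma and 0.044 in edgeR (range over 15 alternatives 0.014 to 0.25). Grin2a, the partner that becomes common with maturation, had 181, 35.7 and 109 against 388 and 286 (adjusted p = 0.10).

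Grin2d, another GluN1 partner, had 89.0, 82.7 and 148 in the libraries labelled Zfp292-OE, against 219 and 296 in control (log2 fold change −1.30, adjusted p = 0.15). Grin2c, Grin3a and Grin3b overlapped between the groups. Library-specific values were clearest for Grin3b, with 115, 0 and 0 against 5.45 and 94.0, and Grin3a was at 0 reads in library 1 labelled Zfp292-OE.

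Delta receptors do not carry glutamate current in the usual way but bind cerebellins across the synapse. Grid1 had 81.0, 32.0 and 106 in the libraries labelled Zfp292-OE, against 210 and 68.5 in control, and the groups overlapped (log2 fold change −0.88, adjusted p = 0.50).

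Of 7 metabotropic glutamate receptor genes 2 fell, 0 rose and 5 did not pass. Grm5 encodes mGluR5, a receptor that couples to phospholipase C (chromosome 7, 87583981 to 88135063). It had 34.2, 22.6 and 30.3 in libraries 1, 2 and 3 labelled Zfp292-OE, against 327 and 167 in control. The 3 libraries labelled Zfp292-OE were close together and far under both controls, with means of 29.0 ± 5.94 (SD, n = 3) against 247 ± 113 (SD, n = 2) in control. In log2 terms Grm5 differed by −2.99 (SE 0.77, limma adjusted p = 0.027, edgeR 0.029). Without library 1 or 2 labelled Zfp292-OE the adjusted p was 0.062 and 0.065, with no filter 0.069 and after quantile normalization 0.054.

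Grm7, Grm8, Grm4, Grm2 and Grm3 belong to receptor groups that inhibit adenylyl cyclase, and did not pass. In group III, Grm7, the presynaptic mGluR7 and the highest of the family per length, had 2427, 1407 and 1563 in the libraries labelled Zfp292-OE, against 2702 and 3045 in control (log2 fold change −0.71, adjusted p = 0.093). Grm8 had 301, 379 and 389, against 823 and 587 (log2 fold change −0.97, adjusted p = 0.10), and Grm4 overlapped (−0.26). In group II, Grm2 had 175, 211 and 131, against 447 and 359 (log2 fold change −1.24, adjusted p = 0.10), and Grm3 overlapped.

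GABA-A receptors had the most members and the most calls, with 5 of 17 lower, 0 higher and 12 not past the test. Over all 46 members 26.1% fell, and of all genes tested 7.38%. The alpha subunits help set where and how strongly GABA acts. Gabra2 overlapped between the groups, at 2396, 4057 and 1444 in the libraries labelled Zfp292-OE, against 4247 and 2097 in control (log2 fold change −0.31, 95% interval −1.23 to 0.62). Gabra3 overlapped as well (−0.38), while Gabra4 (−1.54, adjusted p = 0.14) and Gabra5 (−2.56, adjusted p = 0.16) lay below both controls without passing the test.

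Of 3 rho subunit genes 2 fell. Gabrr3 encodes rho3 (chromosome 16, 59407382 to 59461739). It had 233, 93.0 and 896 in libraries 1, 2 and 3 labelled Zfp292-OE, against 3665 and 3053 in control. Library 3 was the highest of the 3 and still far below both controls. The ratio of means was 0.121 and the log2 fold change −3.63 (SE 0.73, limma adjusted p = 0.0098, edgeR 0.025), with an adjusted p of 0.066 without library 1 labelled Zfp292-OE.

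Gabrr1 encodes rho1 (chromosome 4, 33132556 to 33163588). It had 0, 0 and 211 in libraries 1, 2 and 3 labelled Zfp292-OE, against 1040 and 499 in control. Reads were absent from 2 libraries and present in the other, so the log2 fold change of −6.92 (SE 2.05) depends on the pseudocount, and the ratio of means was 0.0916. The limma adjusted p was 0.044, close to the threshold, and the call was absent in edgeR (0.20, log2 fold change −3.46) and DESeq2 (0.57). Without library 1 or 2 labelled Zfp292-OE the limma value was 0.16 and 0.14, with no filter 0.078, after quantile normalization 0.063 and with a pseudocount of 0.5 it was 0.052. Gabrr2, the rho2 gene beside it, had 60.5, 164 and 98.4 against 216 and 272 (log2 fold change −1.28, adjusted p = 0.19).

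Other GABA-A members that did not pass were Gabrb1, Gabrb2, Gabrg1, Gabrg3, Gabrd, Gabre and Gabrq. For Gabrb2, which lay below both controls, the difference was −1.42 in log2 terms (adjusted p = 0.22). Gabrg1, encoding gamma1, had 497, 185 and 138 in the libraries labelled Zfp292-OE, against 1152 and 485 in control (log2 fold change −1.67, adjusted p = 0.085). Gabrq, encoding theta, and Gabre, encoding epsilon, had positive log2 fold changes of 1.11 and 0.75 with SEs of 1.94 and 1.24, and their adjusted p-values were 0.73 and 0.71. Gabrq had 318, 189 and 2.09, against 109 and 5.39, so libraries varied within both groups. Gabrd, the delta subunit of receptors outside synapses, had 10.3, 334 and 64.9 against 541 and 164.

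**Figure D3:**
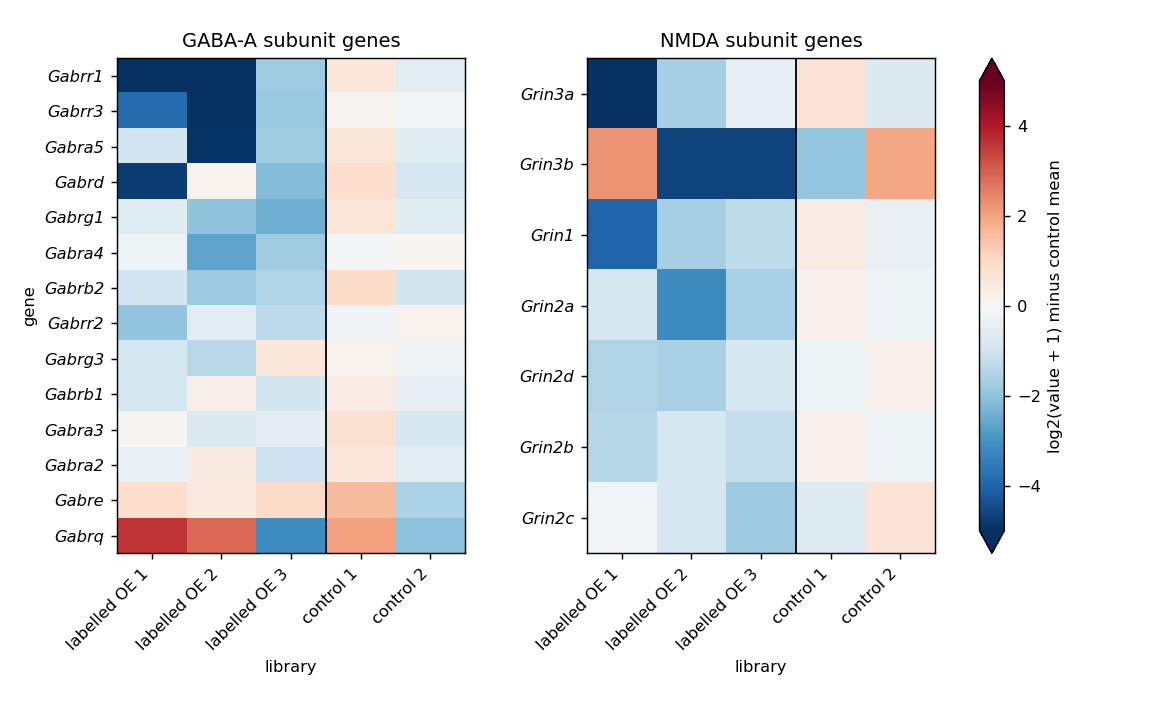
Log2(value + 1) minus the control mean (colour, capped at 5 in either direction) for 14 GABA-A and 7 NMDA subunit genes (rows) in the 3 libraries labelled Zfp292-OE and the 2 control libraries (columns). Gabrr1 and Gabrr3 are low in all 3 libraries labelled Zfp292-OE, to differing degrees, whereas Gabrd, Gabrq and Grin3b differ in direction among those libraries.

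Many GABA-A genes lie in clusters, taken here as members less than 1000000 bases apart. Those on chromosomes 4, 5 and X are described, and further calls lie in clusters not described here. On chromosome 4 (33057712 to 33163588) Gabrr1 fell and Gabrr2 did not pass. None of the 4 genes on chromosome 5 (70751047 to 72149572), Gabrg1, Gabra2, Gabra4 and Gabrb1, passed in limma or edgeR, and 2 had an unadjusted p below 0.05. At that unadjusted level 2531 of all 16316 genes tested were lower and 2820 higher. None of Gabre, Gabra3 and Gabrq on the X chromosome passed in either, with 0 at an unadjusted p below 0.05.

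The control libraries differed from each other over many GABA-A genes. In 13 of 46 members control library 1 was at least 2-fold above control library 2 (28.3%, against 7.53% of all genes tested), and 9 of these were GABA-A genes, among them Gabra3 with 1755 and 601. The reverse held for 2 members, Grin2c and Grin3b (4.35%, against 8% of all genes tested). Among amacrine markers, 3 of 10 were likewise at least 2-fold higher in control library 1 and 0 in control library 2, at sums of 79064 and 71934. So were 2 of 7 vascular, 1 of 10 bipolar and 1 of 10 ganglion cell markers, with 0 in control library 2. Cone, horizontal cell and astrocyte markers had 1 each higher in control library 2 and 0 in control library 1. Of 8 microglia markers, 6 were at least 2-fold higher in control library 2 and 0 in control library 1. The part of these differences in the receptor values was not tested. Within the libraries labelled Zfp292-OE, 12 members varied more than 4-fold between the lowest and the highest. That count was not made over all genes tested, so whether it is unusual is not known.

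GABA-B receptors are obligate pairs of Gabbr1, which binds GABA, and Gabbr2, which couples to the G protein. Gabbr1 (chromosome 17, 37045966 to 37074305) had 4172, 3529 and 3206 in the libraries labelled Zfp292-OE, against 5780 and 7619 in control, and fell by 0.88 on the log2 scale (SE 0.20, limma adjusted p = 0.016, 0.068 without library 2 labelled Zfp292-OE). Gabbr2 had 775, 1005 and 946, against 1466 and 1679. Its difference of −0.80 in log2 terms (SE 0.27) did not pass in limma (adjusted p = 0.066) and did in edgeR (0.049). Neither gene overlapped between the groups.

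Of 3 glycine receptor genes 1 fell, 0 rose and 2 did not pass. Glra3 encodes the alpha3 subunit (chromosome 8, 55940418 to 56130070). It had 100.4, 30.1 and 51.3 in the libraries labelled Zfp292-OE, against 341 and 302 in control. The controls were close and all 3 others far below, with a log2 fold change of −2.55 (SE 0.70, limma adjusted p = 0.034, edgeR 0.045). Without library 2 or 3 labelled Zfp292-OE the adjusted p was 0.084 and 0.065, and the call was also lost with no filter (0.080) and after quantile normalization (0.064). Glra2, the alpha subunit of immature neurons, had 649, 672 and 834, against 1214 and 933 (log2 fold change −0.58, adjusted p = 0.22).

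Summed per length, 6 of 7 receptor families were lower in every library labelled Zfp292-OE than in either control, and glycine receptors overlapped. Values are normalised reads per kb of each gene's longest transcript, summed over a family. The GABA-A sum was 3508 ± 557 (SD, n = 3) under the Zfp292-OE label and 8313 ± 3198 (SD, n = 2) in control. AMPA sums were 1750 ± 220 and 3134 ± 45.1, and NMDA sums, the lowest of all, 77.9 ± 14.0 and 201 ± 9.05. Kainate receptors had 666 ± 46.1 and 1060 ± 133, and metabotropic glutamate receptors 603 ± 127 and 1114 ± 79.9. GABA-B sums were 851 ± 77.2 and 1550 ± 274, and glycine receptor sums 2737 ± 312 and 2817 ± 729. Glrb alone made up 89.4 to 92.8% of the glycine receptor sum in the libraries labelled Zfp292-OE and 85.1 to 86.9% in control. Gabrr3 made up 0.536 to 7.10% and 8.12 to 11.8% of the GABA-A sum. With the median transcript length in place of the longest, the leading gene by the mean over all 5 libraries changed from Gria4 to Gria2 among AMPA and from Grin2d to Grin2b among NMDA genes. The NMDA order also depended on the group. With the longest transcript, Grin2d had 19.6 reads per kb and Grin1 13.2 in the libraries labelled Zfp292-OE, against 47.4 for Grin2d and 52.7 for Grin1 in control.

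**Figure D4:**
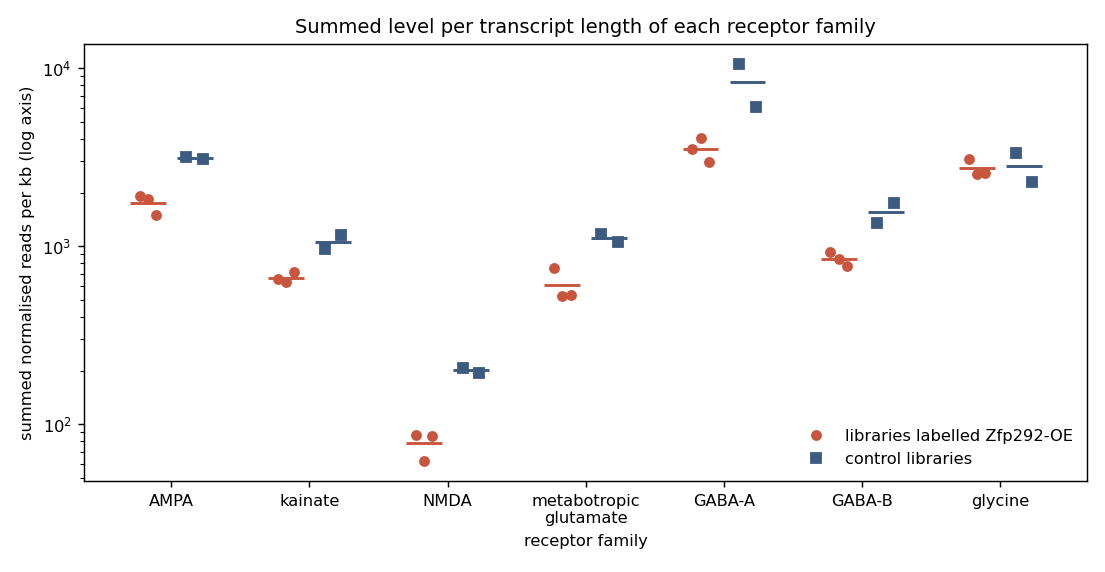
Summed normalised reads per kb (y axis, log scale) of the members of 7 receptor families (x axis), with a point for each library and a line at the group mean. The libraries labelled Zfp292-OE (circles, left) lie below the controls (squares, right) in every family drawn but glycine, whose groups overlap at means of 2737 and 2817.

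Proteins that anchor, escort or align these receptors moved the same way in part. Of 54 genes in a list of scaffolds, auxiliary subunits and synaptic organisers, 9 fell, 0 rose and 45 did not pass. These are 16.7% lower and 0% higher, against 7.38% and 10% of all genes tested. The list's median log2 fold change was −0.60 (−0.06 for all genes tested). No gene of the list rose in edgeR or at an unadjusted p below 0.05. By edgeR 10 of the 54 were called lower, against 7.78% of all genes tested. Dlg4, encoding PSD-95, the main scaffold of glutamatergic synapses, had 566, 618 and 653 in the libraries labelled Zfp292-OE, against 1787 and 2413 in control. The 3 were tightly grouped and far below both controls, with a log2 fold change of −1.76 (SE 0.28, limma adjusted p = 0.0031).

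Cbln4, a secreted cerebellin, had 143, 164 and 154 in the libraries labelled Zfp292-OE, against 1308 and 658 in control (log2 fold change −2.59, adjusted p = 0.0053). Nsf, the ATPase that recycles SNARE complexes and binds GluA2, fell by 0.91 on the log2 scale (adjusted p = 0.0075). The AMPA receptor auxiliary subunit Shisa9 fell to 28.5, 9.40 and 19.9, against 278 and 323 in control (adjusted p = 0.012). Its relative Shisa7 (log2 fold change −1.57), the scaffold Shank1 (−1.71), the GluA2-binding Grip2 (−4.07) and the neuroligins Nlgn2 (−1.04) and Nlgn3 (−0.998) had adjusted p-values of 0.024 to 0.042, each lost without at least 1 library labelled Zfp292-OE. Without library 1, 2 or 3 labelled Zfp292-OE, 4, 5 and 5 of the 9 passed, beside the fall in calls over all genes given above. Gphn, encoding gephyrin, which anchors glycine and GABA-A receptors, had 3894, 2732 and 3275 against 5915 and 4138 (log2 fold change −0.60, adjusted p = 0.095).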

How the data were processed

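The authors deposited 1 normalised signal value per gene and library, made on the mouse build GRCm38 (mm10) according to the submitters' processing notes. Aligner, counter, strand setting and scaling are not named in the labels or files, so overlapping and antisense genes are uncertain. Each library's values were whole multiples of its smallest value above 0 (100% within 1e-06 of a read), a read being worth 1.14, 0.940 and 1.05 in the libraries labelled Zfp292-OE and 1.09 and 0.770 in the controls. Dividing by these steps gave whole reads, and 0 columns of other samples were present.

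The 16316 genes with a mean of at least 10 entered limma-trend (limma 3.58.1 in R 4.3.3), which compared log2(value + 1) between the libraries labelled Zfp292-OE and control, two-sided, with Benjamini-Hochberg adjustment over all of them and a threshold of 0.05. Fold changes on this scale understate those of low genes, except where a library is at 0. edgeR 4.0.16 (quasi-likelihood, TMM) called 1351 genes higher and 1270 lower on the recovered reads, and DESeq2 1.42.0 was an alternative. The 15 alternatives are given at the end. The scripts were tested on simulated counts. Positions and promoters are RefSeq's on GRCm38.p6. Transcript lengths are GENCODE M21's, matched by Entrez identifier for 46 of 46 members.

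The members and lists were chosen with earlier results of these data known, so no list is independent evidence. Genes past the test, the highest per length of each family and the next 6 by p are given by library, except 5 members that are not reported by name here but enter the counts and sums, and the delta receptor sum, which is not given. Further members, among them Grin1, Gria1, Gria3, Gabra2, Gabrq and Grin3b, and Gphn, were chosen after their values were seen.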

Additional observations from a re-analysis of the deposited data

How the results depend on the processing

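All 12 receptor subunits that fell kept a negative log2 fold change under all 15 alternatives. For each of the 12, every library labelled Zfp292-OE lay below both controls. Leaving out a library, the replicate block or another pseudocount or filter therefore could not turn the sign. Only TMM scaling, equal totals, quantile normalization, edgeR and DESeq2 could have turned it. Of members called lower there were 7 after quantile normalization, 8 with no filter, 11 with a pseudocount of 0.5, 12 with a pseudocount of 10 or TMM scaling, 13 with a filter at a mean of 50 or in edgeR, 14 in DESeq2 and 15 with equal totals, against 12. Of the genes described by name, Grik5, Grm5, Gabrr1 and Glra3 lost the call with no filter and after quantile normalization. The count was 0 to 9 when each library was left out, the 0 coming from fits with 1 control library, in which no gene of the table passed, and 0 members were called higher in any fit. Of receptor-associated genes 5 were lower with no filter or after quantile normalization, 19 with equal totals and 15 in DESeq2, against 9 (0 to 5 when each library was left out). Equal totals gave 912 higher and 1985 lower among all genes, brought the median over all genes to −0.27 and over members to −1.31, and moved the family ratios per length to −1.06 for AMPA (from −0.84) and −0.89 for kainate (from −0.67). DESeq2 called 1829 of all genes lower, and leaving out each library gave 0 to 1226 higher and 0 to 850 lower. The sign of Glrb turned with equal totals (−0.15) and quantile normalization (−0.049), and its range when each library was left out was −0.22 to 0.34. That of Zfp292 turned with equal totals (−0.17), quantile normalization (−0.21), the replicate block (−0.011), with −0.033 to 0.12 when each library was left out. The causes of these differences were not tested. With the replicate number as a block 14 members were lower, Grin1 and Grin3a being added. The numbers were not taken to pair the libraries, since same-numbered libraries did not deviate together (correlations −0.04 and −0.03), and library 3 labelled Zfp292-OE has no partner. With 2 control libraries, and reads that are not independent molecules, members with few reads cannot be called firmly in either direction.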
